A study of Mus musculus with 12 samples.

Results

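The genes described here are 5 mouse inhibitors of cyclin-dependent kinases: 4 of the INK4 family (Cdkn2a, Cdkn2b, Cdkn2c and Cdkn2d) and 1 of the CIP family (Cdkn1b). They were taken by gene symbol from the 54356 genes of the deposited tables, not by a measured value. The 5 genes hold 11 of the listed transcripts, and all 5 genes passed the filter on low counts. The other CIP genes, Cdkn1a and Cdkn1c, are counted among the pathway lists.

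INK4 proteins bind Cdk4 and Cdk6 and keep them from D-type cyclins. CIP proteins bind complexes of cyclins with Cdk2 as well. When these kinases are held back, the retinoblastoma protein keeps E2F factors silent and cells leave the cycle. Cdkn2a is unusual in that it encodes the INK4 protein p16Ink4a and, from another first exon and reading frame, p19Arf, which binds Mdm2 and so stabilises p53. In mouse neural stem cells the Polycomb protein Bmi1 is known for keeping this locus silent, and Chd5, a chromatin remodeller, has been described in mouse cells as an activator of p16Ink4a and p19Arf.

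The 12 RNA-seq libraries come from primary mouse neural stem cells, with 3 libraries each for wild type at 3 h, Chd5-/- at 3 h, wild type at 48 h and Chd5-/- at 48 h. Time was counted from the replacement of medium holding epidermal growth factor and fibroblast growth factor 2 by neurobasal medium with B-27, which starts differentiation in all 4 groups. The series asks which genes differ in cells lacking Chd5 as they differentiate. The labels give no strain, age or brain region, leave the deleted part of Chd5 unnamed, and name no separate animals or cultures, so p-values measure only the spread between these libraries, which may be technical.

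The libraries held 14.11 to 18.71 M estimated reads. Chd5 had 35, 69 and 84 reads in the wild-type libraries at 3 h and 94, 100 and 124 in those labelled Chd5-/- (adjusted p = 0.257, edgeR), and 108, 106 and 93 against 92, 50 and 47 at 48 h (adjusted p = 0.467). The RNA therefore did not show the loss that the label names, and the mutant groups are called "the libraries labelled Chd5-/-" throughout. In wild-type replicate 1 at 3 h, reads lay on transcripts of 1805 bases on average against 3040 to 3304 in the other 11 libraries, and ribosomal protein genes took 13.23% of the reads against 3.02% to 3.72%. Replicate 2 of both genotypes at 48 h kept high RNA of 20 mitosis genes, with a mean log2(CPM + 1) of 7.10 and 6.94 against 3.32 to 3.41 in the other 48 h libraries and 7.21 to 7.83 at 3 h. For the 5 inhibitors, values without these 3 libraries, or without 1 of them, are given where the call or the direction changed. Of 14 neural stem cell markers, 13 reached 1 CPM in at least 1 library (Prom1 did not). Of 8 microglial markers, 6 stayed under 1 CPM in all 12, Aif1, Csf1r and Cx3cr1 among them. No neuron or astrocyte marker (8 each) did so, and of 9 oligodendrocyte lineage markers only Sox10. The count therefore does not set neural stem cells apart from these lineages. In bulk RNA, fewer cells with a transcript and less of it per cell cannot be told apart.

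Cdkn2a and Cdkn2c, the genes of the 5 with more than 1 start window in RefSeq, are shown by the sequence before and at those starts. Each window runs from 250 bases before to 50 after the start (minus strand, written 5′ to 3′, RefSeq, build GRCm38.p6). These starts separate the Cdkn2a and Cdkn2c transcripts whose reads are given below. The annotated starts of the 2 Cdkn2a transcripts lie 12461 bases apart on chromosome 4. The p19Arf window (chr4:89294570-89294869) is upstream, its start 34 bases inside the annotated start of the transcript Cdkn2a-202. The p16Ink4a window (chr4:89282143-89282442) is downstream, at the annotated start of Cdkn2a-201. The Cdkn2c windows are chr4:109666707-109667006, near the start of the long transcript Cdkn2c-202 (433 bases inside its annotated start), and chr4:109665323-109665622, at the start of the short transcript Cdkn2c-201. Capitals mark an E2F motif.
Cdkn2a, p19Arf start: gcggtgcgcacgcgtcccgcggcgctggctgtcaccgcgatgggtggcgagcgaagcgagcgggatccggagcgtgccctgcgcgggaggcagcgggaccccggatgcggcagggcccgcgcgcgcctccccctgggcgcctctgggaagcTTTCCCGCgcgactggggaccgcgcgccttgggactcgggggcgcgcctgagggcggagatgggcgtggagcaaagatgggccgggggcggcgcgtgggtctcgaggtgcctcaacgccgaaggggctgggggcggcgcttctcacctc
Cdkn2a, p16Ink4a start: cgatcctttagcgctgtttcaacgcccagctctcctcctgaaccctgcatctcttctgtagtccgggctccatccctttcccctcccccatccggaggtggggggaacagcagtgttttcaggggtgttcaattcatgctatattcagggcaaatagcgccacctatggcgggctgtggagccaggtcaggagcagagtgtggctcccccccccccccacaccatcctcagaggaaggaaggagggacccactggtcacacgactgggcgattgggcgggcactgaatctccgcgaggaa
Cdkn2c, upstream start: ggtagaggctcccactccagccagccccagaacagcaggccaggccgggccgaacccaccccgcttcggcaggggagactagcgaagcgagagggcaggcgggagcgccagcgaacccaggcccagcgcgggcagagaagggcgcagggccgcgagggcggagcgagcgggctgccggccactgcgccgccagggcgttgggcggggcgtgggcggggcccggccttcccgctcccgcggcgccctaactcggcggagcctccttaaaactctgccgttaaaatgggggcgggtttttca
Cdkn2c, downstream start: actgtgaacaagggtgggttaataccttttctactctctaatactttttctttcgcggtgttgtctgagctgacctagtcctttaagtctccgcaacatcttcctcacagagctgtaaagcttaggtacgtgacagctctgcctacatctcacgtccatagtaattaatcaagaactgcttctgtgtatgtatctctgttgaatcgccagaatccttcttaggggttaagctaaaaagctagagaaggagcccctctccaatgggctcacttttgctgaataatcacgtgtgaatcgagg
The motif was searched on both strands as TTTCCCGC, TTTCGCGC, TTTGCCGC or TTTGGCGC. It was present once in the p19Arf window, as TTTCCCGC beginning 99 bases before the start, and in none of the other 6 windows of the 5 genes. Of all 32851 mouse windows of 300 bases, 744 (2.26%) held it. G and C made up 77.0% of the p19Arf window, with 45 CpG dinucleotides, and 60.3% of the p16Ink4a window, with 12. The upstream Cdkn2c window had 73.3% G and C and 33 CpG, the downstream one 44.0% and 8. A match of letters is a description of the window and shows no binding.

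Cdkn2a (ENSMUSG00000044303, chr4:89274471-89294653, minus strand, GRCm38) differed by genotype at 3 h, with less RNA under the Chd5-/- label. It stood at 618, 139 and 141 CPM (counts per M reads of scaled library size) in wild-type replicates 1, 2 and 3, a mean of 299 ± 276 (SD, n = 3). The libraries labelled Chd5-/- held 37.8, 32.9 and 32.7 CPM, a mean of 34.5 ± 2.9 (SD, n = 3). The groups did not overlap: the lowest wild-type library was well above the highest of the others. Wild-type replicate 1, the library with reads on short transcripts, was far above its own group. The share of all genes without overlap was not counted, so statements on overlap, here and below, only describe these libraries. The difference was -3.12 ± 0.59 (log2, SE; adjusted p = 0.0108, edgeR quasi-likelihood test with Benjamini-Hochberg adjustment). It was still called, at -2.02 ± 0.05, without the 3 libraries that stood apart (adjusted p = 3.77e-12), where 52.5% of all genes passed. That fit removes libraries seen to deviate. Its small SE and p, here and below, measure only the spread among the libraries left, which may be technical.

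At 48 h the genotypes were closer. Wild-type libraries held 41.2, 96.4 and 41.2 CPM of Cdkn2a and those labelled Chd5-/- 35.3, 45 and 36.8. Replicate 2, which kept mitosis RNA, was the highest of each group, and the ranges overlapped. The difference was -0.61 ± 0.55 and did not pass (adjusted p = 0.869, edgeR). It was -0.18 ± 0.07 without the 3 libraries and then passed (adjusted p = 0.0419).

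From 3 h to 48 h Cdkn2a fell in wild type by 2.33 ± 0.57 on the log2 scale (adjusted p = 0.0184, edgeR), a call lost without wild-type replicate 1 or replicate 3 at 48 h (adjusted p = 0.0747 for each). It was -1.26 ± 0.34 without wild-type replicate 1 at 3 h (adjusted p = 0.0218) and -1.81 ± 0.06 without the 3 libraries that stood apart (adjusted p = 5.29e-12). In the libraries labelled Chd5-/- it was already low and the time difference was 0.18 ± 0.55 (adjusted p = 0.85). The interaction, which tests whether the genotype difference changed with time, was 2.51 ± 0.79 with an unadjusted p of 0.00883, but did not pass over all genes (adjusted p = 0.287, edgeR). It was 1.84 ± 0.09 without the 3 libraries, and passed (adjusted p = 3.85e-09).

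Nearly all Cdkn2a reads belonged to the p19Arf transcript, Cdkn2a-202 (895 bases). It took 97.2% to 99.5% of the gene's reads in wild type at 3 h and 98.7% to 100% in the other groups. Its levels therefore followed the gene: 600, 137 and 140 CPM in wild type at 3 h against 37.6, 32.8 and 32.6, a difference of -3.09 ± 0.59 (adjusted p = 0.0109, edgeR, Cdkn2a replaced by its 2 transcripts), and of -2.01 ± 0.05 without the 3 libraries that stood apart (adjusted p = 3.6e-12).

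The p16Ink4a transcript, Cdkn2a-201 (852 bases), was rare. Salmon assigned it 173.4, 38.1 and 13.9 reads in wild type at 3 h. The libraries labelled Chd5-/- had 5.1, 2.1 and 2.1. At 48 h it had 8.5, 8.4 and 7.1 reads in wild type and 0, 1.9 and 2.0 in the others. The genotypes did not overlap at either time, though most libraries rest on fewer than 10 reads. It was lower at 3 h by a fitted -5.21 ± 1.14 (adjusted p = 0.0224, edgeR) and fell with time in wild type (-3.81 ± 1.04, adjusted p = 0.0266), where 6.72% and 22.9% of all features passed. The transcript entered these fits only through the wild-type libraries at 3 h, the only group with at least 10 reads in each library. The filter thus favoured a transcript high in that group, and these calls only describe the libraries. At 48 h its difference of -2.37 ± 1.27 did not pass (adjusted p = 0.589). The 3 h call was lost without any 1 of the libraries labelled Chd5-/- at 3 h (adjusted p 0.0829 to 0.115). Wild-type replicate 1 held most of the reads at 3 h, and the difference without it was -3.02 ± 0.68 (adjusted p = 0.0237). The time call was lost without wild-type replicate 1 at 3 h (-1.65, adjusted p = 0.0715) or without replicate 1 or 3 at 48 h (0.0883 and 0.0933). In limma-voom with all members split by transcript, neither the 3 h nor the time difference passed (adjusted p = 0.0894 and 0.111), where 6.21% and 20.9% of all features did. The transcripts share 575 bases, and only 277 bases of p16Ink4a and 320 of p19Arf tell them apart.

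**Figure D1:**
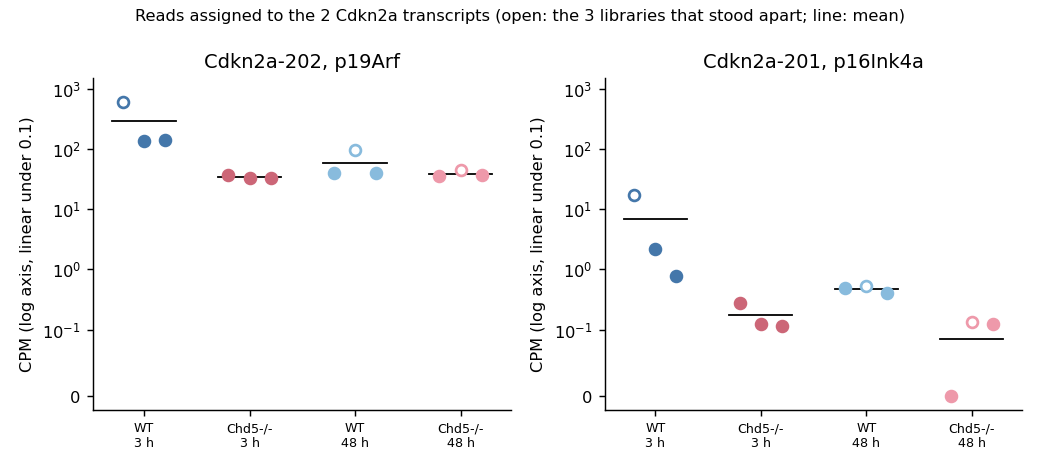
CPM of the p19Arf transcript (Cdkn2a-202) and the p16Ink4a transcript (Cdkn2a-201) in each of the 12 libraries, on an axis that is logarithmic above 0.1; lines are group means and open points are the 3 libraries that stood apart. The p19Arf transcript lies between 32.6 and 600 CPM and the p16Ink4a transcript between 0 and 17.5 CPM; for both, all wild-type libraries at 3 h lie above those labelled Chd5-/-.

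The share of reads on the p19Arf transcript was 0.938 percentage points higher in the libraries labelled Chd5-/-, averaged over both times (exact permutation test within times, two-sided, p = 0.01, n = 3 per group; adjusted p = 0.08 over 16 share tests, smallest possible p 0.005). It did not pass the correction.

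Cdkn2b (ENSMUSG00000073802, chr4:89306299-89311039, minus strand) encodes p15Ink4b, an INK4 protein known for its induction by TGF-beta. It lies upstream of Cdkn2a, with 11646 bases between the annotated genes. It moved opposite to its neighbour, though at a level that rests on few reads. Wild-type libraries at 3 h held 9, 2 and 8 reads of it, or 0.911, 0.114 and 0.444 CPM (mean 0.49 ± 0.401, SD, n = 3). The libraries labelled Chd5-/- held 67, 63 and 51 reads, or 3.74, 3.98 and 2.9 CPM (mean 3.54 ± 0.566). Every library labelled Chd5-/- was above every wild-type library. The difference of 2.92 ± 0.61 passed (adjusted p = 0.0179, edgeR). It was 3.62 ± 0.36 without the 3 libraries that stood apart (adjusted p = 1.94e-06), and ranged from 2.42 without wild-type replicate 2 at 3 h (adjusted p = 0.0365) to 3.63 without replicate 1 (adjusted p = 0.00532).

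At 48 h wild type held 27, 9 and 32 reads of Cdkn2b, or 1.65, 0.607 and 1.82 CPM, and the libraries labelled Chd5-/- 57, 54 and 55 reads, or 3.53, 3.61 and 3.47 CPM. The groups again did not overlap, with replicate 2 the lowest of wild type. The difference of 1.37 ± 0.56 did not pass with all libraries (adjusted p = 0.336, edgeR) and did without the 3 that stood apart (1.02 ± 0.28, adjusted p = 0.00889). Over time Cdkn2b differed by 1.55 ± 0.61 in wild type (adjusted p = 0.0881), which became 2.55 ± 0.42 without the 3 libraries (adjusted p = 0.000101). It also passed with wild-type replicate 1 at 3 h left out alone (2.21, adjusted p = 0.0189) or wild-type replicate 2 at 48 h (1.91, adjusted p = 0.0332), and in DESeq2 with all libraries (1.53, adjusted p = 0.0399), where 30.3% of all genes passed. In the libraries labelled Chd5-/- the time difference was -0.00 ± 0.54 (adjusted p = 0.999). Its interaction of -1.55 ± 0.81 did not pass (adjusted p = 0.538), and did without the 3 libraries (-2.60 ± 0.49, adjusted p = 0.000888).

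At 3 h, 2 of the 5 inhibitors passed by genotype, Cdkn2a lower and Cdkn2b higher, where 6.71% of the 16043 genes tested passed, 3.48% lower and 3.24% higher. At 48 h none of the 5 passed in edgeR, limma-voom or DESeq2, where 2.74%, 3.00% and 5.73% of all genes did; Cdkn2b alone had an unadjusted p under 0.05 in edgeR. With the replicate number as a block within the 48 h libraries, 1330 of 15085 genes passed and again none of the 5. The fit to the 3 h libraries alone passed neither gene (adjusted p = 0.0592 for Cdkn2a and 0.0609 for Cdkn2b), nor did Cdkn2a pass with any of the 3 libraries labelled Chd5-/- at 3 h left out (adjusted p 0.0555 to 0.064). Cdkn2b lost its call at 3 h without replicate 1 or 2 of that group (0.0636 and 0.0674) or without wild-type replicate 3 (0.0526). Without the 3 libraries that stood apart, 3 of 5 passed at each time, where 52.5% and 47.2% of the 16489 genes tested did.

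Markers of other cell types differed between the same 3 h libraries. The summed level of 9 fibroblast and smooth muscle markers was 15.3 to 16.8 CPM in wild type and 573 to 606 CPM in the libraries labelled Chd5-/-. Nearly all of it was the smooth muscle actin gene Acta2, at 6.79, 3.59 and 2.72 CPM against 598, 574 and 566. Of the 9, 5 were tested. Of these, 2 passed as higher (Acta2 and Tagln) and 3 as lower (Col1a1, Col3a1 and Twist1), where 3.24% of all genes passed as higher and 3.48% as lower. Col1a2, Dcn, Lum and Pdgfrb stayed under 1 CPM in all 12 libraries. The 8 astrocyte markers summed to 1314 to 1630 CPM against 621 to 653, with 1 higher (Slc1a2) and 3 lower (Aqp4, Gja1 and Sparcl1). Sparcl1 held 450, 1150 and 1131 CPM against 10.7, 8.71 and 8.88, and Aldoc 792, 395 and 380 against 554, 544 and 573. The 8 neuron markers summed to 308 to 700 CPM against 1194 to 1303, with 0 higher and 1 lower (Gap43) of the 6 tested. The higher sum lay in Map2, at 114, 476 and 490 CPM against 1095, 1178 and 1212, the lowest being wild-type replicate 1. Tubb3 (119, 157 and 150 against 98.4, 93.1 and 89.9) and Gap43 went the other way. The rest of the neuron list stayed under 1 CPM at 3 h. Of 8 tested oligodendrocyte lineage genes, 2 were higher and 1 lower, and of 5 tested endothelial genes, 0 were higher and 1 lower. None of the 13 tested neural stem cell, 2 microglial or 3 ependymal genes passed. No gene of these lists was at 0 in all libraries, and their part in the differences of Cdkn2a and Cdkn2b was not tested.

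**Figure D2:**
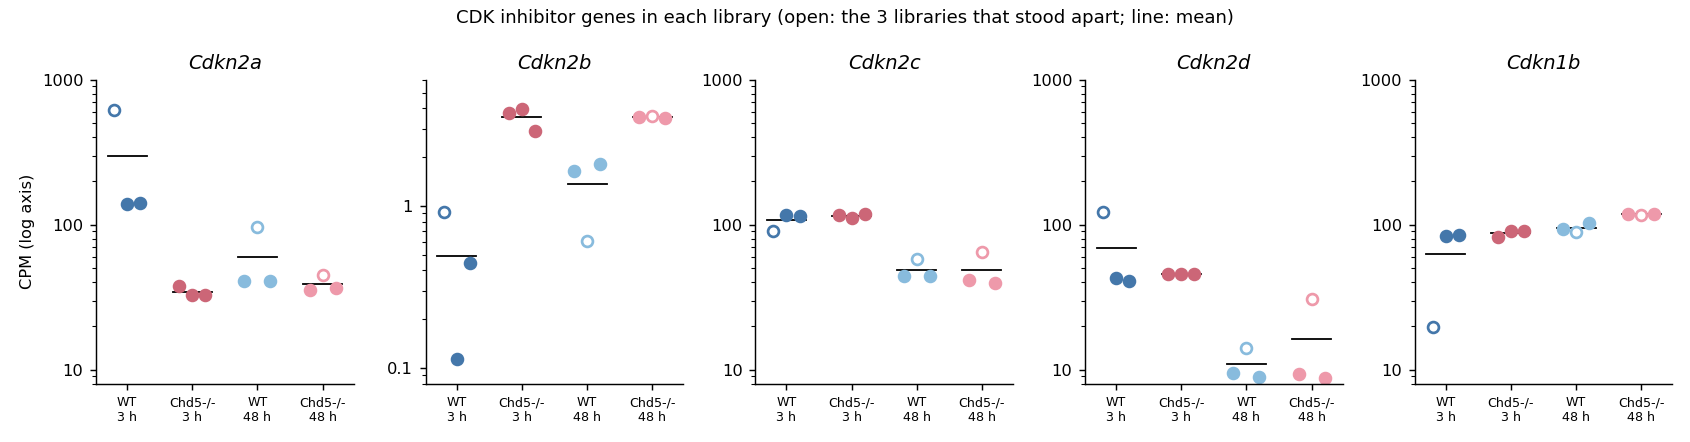
Level of the 5 inhibitor genes in CPM (log axis, with its own range for Cdkn2b) in each library of the 4 groups; each point is a library, lines are group means and open points are the 3 libraries that stood apart. Cdkn2a is highest in wild type at 3 h, Cdkn2b is higher in all libraries labelled Chd5-/- than in wild type, Cdkn2c and Cdkn2d are lower at 48 h, and Cdkn1b reaches 116 to 119 CPM in the libraries labelled Chd5-/- at 48 h.

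Cdkn2c (ENSMUSG00000028551, chr4:109660876-109667189, minus strand) encodes p18Ink4c, an inhibitor of Cdk6 and Cdk4. It fell with time in both genotypes. Wild type went from 90.5, 116 and 114 CPM at 3 h to 44.1, 57.8 and 44.6 at 48 h, and the libraries labelled Chd5-/- from 116, 112 and 118 to 41.8, 65 and 39.5. No 48 h library reached the level of any 3 h library, and replicate 2 at 48 h was again the highest of both genotypes. The changes were -1.13 ± 0.24 in wild type (adjusted p = 0.00981, edgeR) and -1.24 ± 0.24 in the libraries labelled Chd5-/- (adjusted p = 0.0051). The genotypes differed by 0.11 ± 0.23 at 3 h (adjusted p = 0.803) and by -0.00 ± 0.23 at 48 h (adjusted p = 1).

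The reads of Cdkn2c divided between a long transcript, Cdkn2c-202 (2471 bases, starting at chr4:109667189), and a short one, Cdkn2c-201 (1106 bases, starting at chr4:109665372). In mouse muscle cells the longer Cdkn2c RNA is known from proliferating cells and the shorter from differentiating ones. At 3 h the long transcript took 66.2%, 67.9% and 67.8% of the gene's reads in the libraries labelled Chd5-/-. In wild type at 3 h it took 41.3%, 66.6% and 68.9%, the low value being the library with reads on short transcripts. At 48 h it took 35.6%, 67.5% and 35.1% in wild type. The libraries labelled Chd5-/- then had 34.5%, 65% and 31.4%. Replicate 2 of both genotypes thus stayed at the share of the 3 h libraries, as it did in mitosis RNA, while the other four 48 h libraries did not reach it. What sets the share was not tested.

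On the TPM scale, which takes length into account, the short transcript differed less. It stood at 25.8 to 27.9 TPM in 9 libraries of both times and genotypes, and at 12.5, 15.5 and 20.1 TPM in the 3 libraries that stood apart. The long transcript stood at 19.3 to 21.2 TPM in 5 of the 6 libraries at 3 h and at 4.44 to 5.64 TPM in 4 of the 6 at 48 h. The exceptions were wild-type replicate 1 at 3 h (3.6 TPM) and replicate 2 at 48 h (11.8 and 13.9 TPM).

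In a fit with the 5 genes split into their 11 transcripts, chosen after these values were seen, the long transcript fell by 1.75 ± 0.53 on the log2 scale in the libraries labelled Chd5-/- (adjusted p = 0.0363, edgeR). In wild type its change of -1.46 ± 0.52 did not pass (adjusted p = 0.0663), while in limma-voom it did (-1.55 ± 0.49, adjusted p = 0.0481, where 20.9% of all features passed). The short transcript changed by -0.74 ± 0.24 in wild type, which passed (adjusted p = 0.0471), and by -0.55 ± 0.24 in the libraries labelled Chd5-/-, which did not (adjusted p = 0.124). In that fit 22.8% of all features passed over time in wild type and 22.0% in the libraries labelled Chd5-/-. Without the 3 libraries the long transcript changed by -2.36 ± 0.06 and -2.57 ± 0.06 in wild type and the libraries labelled Chd5-/-, and the short one by -0.42 ± 0.06 and -0.50 ± 0.06 (all adjusted p at or under 4.73e-05, where 76.0% and 79.0% of all features passed). The difference between the transcripts, tested as the share of the long one, was -18.3 percentage points from 3 h to 48 h over both genotypes and all 12 libraries (exact permutation test, two-sided, p = 0.03, n = 3 per group; adjusted p = 0.16 over 16 tests), and did not pass the correction. Without the 3 libraries it was -33.4 percentage points (exact permutation p = 0.0167, the smallest possible with 60 arrangements). The libraries removed were those whose shares lay apart from their groups, so this p cannot support a change with time.

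**Figure D3:**
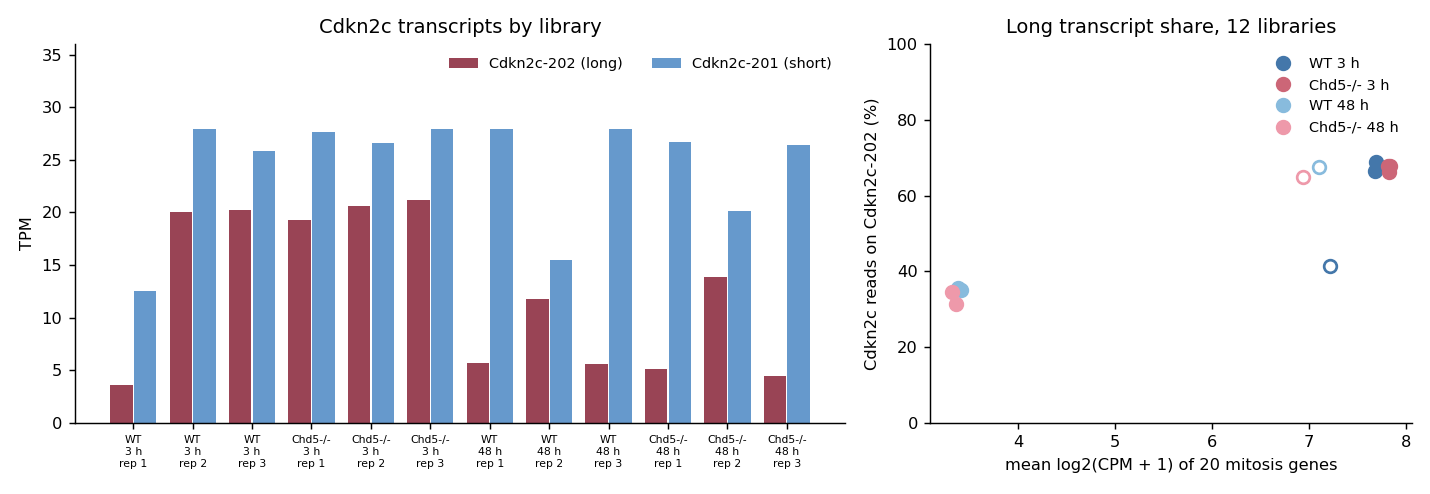
Left, TPM of the long (Cdkn2c-202) and short (Cdkn2c-201) transcript in each library; right, percent of Cdkn2c reads on the long transcript against the mean log2(CPM + 1) of 20 mitosis genes, 1 point per library, open points being the 3 libraries that stood apart. The libraries fall in clusters: 4 at 48 h have shares of 31.4% to 35.6% and mitosis levels of 3.32 to 3.41, while both replicate 2 libraries at 48 h lie with the 3 h libraries, apart from wild-type replicate 1 at 3 h (41.3%).

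Cdkn2d (ENSMUSG00000096472, chr9:21288410-21291407, minus strand) encodes p19Ink4d, which with p27Kip1 is known in mice for keeping neurons out of the cell cycle. It too was lower at 48 h. Wild type went from 123, 42.6 and 41.2 CPM to 9.46, 14.2 and 8.86, a change of -2.67 ± 0.57 (adjusted p = 0.0103, edgeR). The libraries labelled Chd5-/- went from 45.6, 45.6 and 45.9 CPM to 9.35, 30.6 and 8.83. Both genotypes were without overlap between times, but the change of -1.49 ± 0.55 in the libraries labelled Chd5-/- did not pass (adjusted p = 0.0744). Replicate 2 at 48 h was the highest of its group in both genotypes, and without the libraries that stood apart the change there was -2.36 ± 0.06 (adjusted p = 1.05e-12) and in wild type -2.24 ± 0.07. It passed as well with wild-type replicate 1 at 3 h left out alone (-1.53, adjusted p = 0.0225) or replicate 2 at 48 h of its own group (-2.34, adjusted p = 0.00905).

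By genotype, Cdkn2d differed by -0.60 ± 0.53 at 3 h (adjusted p = 0.533, edgeR), a direction that wild-type replicate 1 set. Without that library it was 0.13 (adjusted p = 0.961), and without all 3 it was 0.13 ± 0.05 (adjusted p = 0.0455). At 48 h the difference of 0.58 ± 0.54 (adjusted p = 0.877) was set by replicate 2 of the libraries labelled Chd5-/-, without which it was -0.26 (adjusted p = 0.916).

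Cdkn1b (ENSMUSG00000003031, chr6:134920401-134925513, plus strand) encodes p27Kip1, the CIP protein known for holding Cdk2 inactive in resting and differentiating cells. Its RNA passed in none of the 5 contrasts with all libraries. Wild type held 19.7, 83.4 and 85.1 CPM at 3 h, and the libraries labelled Chd5-/- 82.7, 90 and 90.5. The low value was again wild-type replicate 1, in which Salmon assigned 193.4 reads to Cdkn1b-201 (2393 bases), 1.6 to Cdkn1b-202 (4552 bases) and 0 to Cdkn1b-203 (1757 bases). At 48 h wild type held 92.8, 89.2 and 102 CPM and the libraries labelled Chd5-/- 119, 116 and 119, with no overlap. The genotype differences were 0.48 ± 0.41 at 3 h (adjusted p = 0.513, edgeR) and 0.32 ± 0.41 at 48 h (adjusted p = 0.957). The changes with time were 0.59 ± 0.41 in wild type (adjusted p = 0.317) and 0.43 ± 0.41 in the libraries labelled Chd5-/- (adjusted p = 0.495). Cdkn1b passed, with wild-type replicate 1 at 3 h left out alone, by genotype at 48 h (0.32, adjusted p = 0.0478) and over time in the libraries labelled Chd5-/- (0.39, adjusted p = 0.00559).

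Without the 3 libraries that stood apart, Cdkn1b was 0.30 ± 0.05 higher at 48 h in the libraries labelled Chd5-/- (adjusted p = 0.0004, edgeR) and differed by 0.06 ± 0.05 at 3 h (adjusted p = 0.358). It was then higher at 48 h than at 3 h, by 0.16 ± 0.05 in wild type (adjusted p = 0.0169), and by 0.41 ± 0.05 in the libraries labelled Chd5-/- (adjusted p = 4.58e-06). The interaction, -0.16 ± 0.58 with all libraries (adjusted p = 0.924), turned to 0.25 ± 0.07 (adjusted p = 0.0167). The share of reads on its longest transcript, Cdkn1b-202, was 18.3 percentage points higher at 48 h than at 3 h with all 12 libraries (exact permutation test, two-sided, p = 0.01, n = 3 per group), and did not pass over the 16 share tests (adjusted p = 0.08). Without wild-type replicate 1 at 3 h, which had 0.808% of its Cdkn1b reads on that transcript, the difference was 11.5 percentage points (exact p = 0.02), and without all 3 libraries it was 6.59 (exact p = 0.05).

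Over time, 3 of the 5 inhibitors passed in wild type, Cdkn2a, Cdkn2c and Cdkn2d, all lower at 48 h, where 22.9% of all genes passed and 10.1% were lower. In the libraries labelled Chd5-/-, 1 passed, Cdkn2c, lower at 48 h, where 22.1% of all genes passed and 8.03% were lower. The fit to the wild-type libraries alone passed none of the 5 and none of its 14938 genes. In the genotype by time interaction 0 of 5 passed, and 0.231% of all genes did; Cdkn2a alone had an unadjusted p under 0.05 in edgeR. Without the 3 libraries that stood apart, 5 passed over time in wild type, 3 in the libraries labelled Chd5-/- and 3 in the interaction, where 76.0%, 79.0% and 40.4% of all genes did. The genotype contrasts share their wild-type and mutant libraries with the time contrasts, so the contrasts are not independent of each other.

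**Figure D4:**
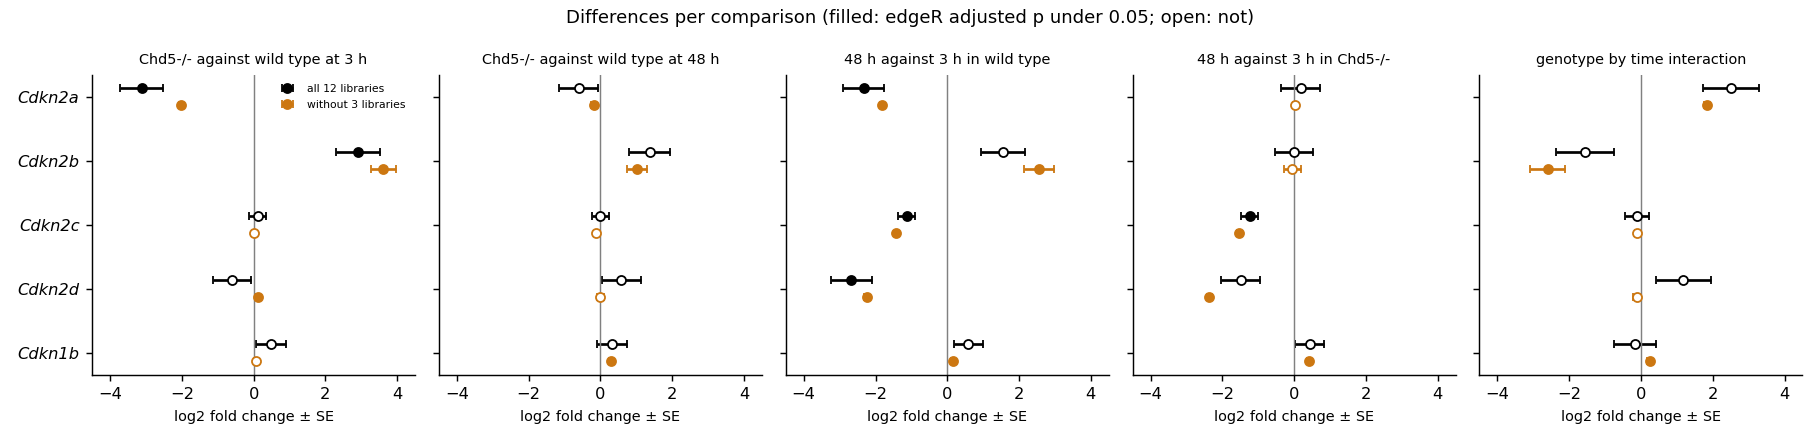
Log2 fold change and SE of the 5 inhibitors in each of the 5 contrasts, from the edgeR fit to all 12 libraries (black) and without the 3 libraries that stood apart (orange); filled points passed at an adjusted p under 0.05. Cdkn2a (-3.12) and Cdkn2b (2.92) stand on opposite sides of 0 at 3 h in both fits, and Cdkn2d at 3 h and both Cdkn1b and Cdkn2d in the interaction change side between the fits (Cdkn2d from 1.18 to -0.12).

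Per length, in TPM, Cdkn2a was the most abundant of the 5 in wild type at 3 h, with a median of 110 (109 to 176). Cdkn2c followed at 46, Cdkn2d at 24.7 and Cdkn1b at 23.5, and the ranges of these neighbours overlapped. Cdkn2b was lowest at 0.158. In the libraries labelled Chd5-/- at 3 h the order was led by Cdkn2c at 47.2, with Cdkn2d at 27.3 and Cdkn2a at 26.5 overlapping, then Cdkn1b at 23.9 and Cdkn2b at 1.67.

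At 48 h wild type was led by Cdkn2a at a median of 45.1 TPM, above Cdkn2c at 33.5 and Cdkn1b at 33.3, which overlapped. Cdkn2d at 6.6 and Cdkn2b at 1.05 stood below without overlap. In the libraries labelled Chd5-/- at 48 h, Cdkn1b at 42.8 and Cdkn2a at 39.6 TPM overlapped at the top, followed by Cdkn2c at 31.9, Cdkn2d at 7.15 and Cdkn2b at 2.19. Here too Cdkn2a was nearly all p19Arf. The p16Ink4a transcript stood at 0.606, 0.554 and 0.467 TPM in wild type at 48 h and at 0, 0.132 and 0.144 in the others. Cdkn2b was the lowest of the 5 in every library. In wild-type replicate 1 at 3 h the level of Cdkn2a was less far from its group in TPM (176 against 109 and 110) than in CPM (618 against 139 and 141), and that of Cdkn1b was low on both scales (1.84 TPM).

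The other CIP genes were both higher by genotype at both times, where 3.24% of all genes were higher at 3 h and 2.74% passed in either direction at 48 h. Cdkn1a, the p53 target that encodes p21, is named here only for its count. Cdkn1c, which encodes p57Kip2, had 1, 0 and 2 reads in wild type at 3 h against 16, 9 and 18, and 0, 0 and 1 at 48 h against 12, 7 and 10 (adjusted p = 0.0213 and 0.0223, edgeR). Cdkn1c passed the filter on low counts only through libraries labelled Chd5-/-, where it was higher, so its calls only describe these libraries. With Cdkn2b these low genes rested on fewer than 100 reads in each library.

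Of 10 cyclins and kinases that the inhibitors bind, 1 passed by genotype at 3 h and 0 at 48 h, where 6.71% and 2.74% of all genes did. The 1 was Cdk6, a partner of D-type cyclins, at 10.5, 10.2 and 10.1 CPM in wild type at 3 h against 57.9, 61.6 and 66.9 (2.59 ± 0.29, adjusted p = 0.000498). It was higher at 48 h than at 3 h in wild type (1.06 ± 0.28, adjusted p = 0.022) and lower in the libraries labelled Chd5-/- (-1.14 ± 0.27, adjusted p = 0.0144). The median difference of the list at 3 h was -0.01 against -0.02 over all genes. Ccnd1, the cyclin D1 gene, showed the split of the 48 h libraries, at 41.6, 487 and 40.3 CPM in wild type and 82.3, 807 and 79.3 in the others.

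Of 8 genes of the arm from p19Arf to p53, 3 were higher at 3 h in the libraries labelled Chd5-/-, in which p19Arf RNA was lower; 3.24% of all genes were higher there. Mdm2, the p53 ubiquitin ligase that p19Arf binds, held 26.6, 46.9 and 49.4 CPM in wild type against 92.3, 95.8 and 87.9 (1.17 ± 0.24, adjusted p = 0.0151, edgeR). The p53 targets Zmat3 (2.40 ± 0.26, adjusted p = 0.00044) and Ccng1 (4.28 ± 0.52, adjusted p = 0.000771) were higher as well. At 48 h, where 2.74% of all genes passed, 1 of the 8 did, Ccng1, at 28.5, 7.15 and 28.4 CPM in wild type against 120, 99.3 and 119 (2.40 ± 0.48, adjusted p = 0.0232). The median of the list was 0.76 at 3 h and 0.15 at 48 h, against -0.02 over all genes at both times.

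By genotype, none of 11 pocket protein and E2F genes passed at either time, none of 12 genes that control p27 turnover or expression, and none of the 17 tested genes (of 18 listed) known to repress or activate the Cdkn2a and Cdkn2b locus. Of all genes, 6.71% passed at 3 h and 2.74% at 48 h, so counts of 0 in lists of this size say little about these genes. The medians of these 3 lists at 3 h were 0.23, -0.03 and 0.16. Over time, Cbx7, a Polycomb reader known to bind at the locus, was higher at 48 h in wild type (2.15 ± 0.28, adjusted p = 0.00181, edgeR) and in the libraries labelled Chd5-/- (2.00 ± 0.27, adjusted p = 0.00115), as was the H3K27 demethylase gene Kdm6b (1.68 ± 0.25 and 1.70 ± 0.25). The methyltransferase gene Ezh2 was lower in the libraries labelled Chd5-/- (-1.35 ± 0.40, adjusted p = 0.033). Rnf123, part of the ligase that degrades p27 in early G1, was higher at 48 h in both (1.78 ± 0.21 and 1.16 ± 0.20). None of the 20 mitosis genes passed in any of the 5 contrasts, with medians of -1.90 over time in wild type and -2.35 in the libraries labelled Chd5-/-, where replicate 2 of each stayed high.

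No annotated gene overlapped any of the 5 in GENCODE M21. Mtap, the nearest coding gene to Cdkn2a on its other side (93390 bases away), differed by -0.22 ± 0.35 by genotype at 3 h (adjusted p = 0.743, edgeR) and was lower at 48 h in wild type (-1.28 ± 0.36, adjusted p = 0.0292). Dmrta1, beyond Cdkn2b, had 0 to 8 reads, and Ap1m2, beyond Cdkn2d, 0 to 2. The neighbours Faf1 of Cdkn2c, Kri1 of Cdkn2d (441 bases away), and Gpr19 and Apold1 of Cdkn1b did not pass by genotype at either time. Chd5 itself lies on chromosome 4, 63.0 Mb beyond Cdkn2a and Cdkn2b and 42.7 Mb beyond Cdkn2c.

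Each inhibitor was also set beside the 11865 tested coding genes with a mean of at least 1 CPM, by Pearson correlation of log2(CPM + 1) over the 12 libraries, as a description. These libraries share groups and clusters, and no p is given. The genes most like Cdkn2a were Nnmt (0.987), Klk12 (0.977) and Alad (0.972). For Cdkn2b they were Uckl1 (0.969), Rimbp2 (0.967) and Sorbs3 (0.963). For Cdkn2c they were Tcf7 (0.993), Etf1 (0.993) and Polr2m (0.992), and for Cdkn2d Haus8 (0.990), Psmd14 (0.989) and Mrps27 (0.987). Those of Cdkn1b were Epg5 (0.996), Golga7 (0.995) and Kdm4c (0.990). Among the inhibitors, Cdkn2c and Cdkn2d were the most alike (0.873), while Cdkn2a stood at -0.738 with Cdkn2b and -0.847 with Cdkn1b. These values include wild-type replicate 1 at 3 h, which had the most Cdkn2a (618 CPM) and the least Cdkn1b (19.7 CPM). No correlation was computed without it.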

How the data were processed

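The authors deposited 1 table per library, from Salmon according to the submitters' processing notes; its version and settings are not given in the sources used. Per the labels' protocols, RNA came from a Trizol extraction and the library kit was TruSeq Stranded mRNA. Per the file headers, the deposited tables hold an estimated count (NumReads) and TPM for 140658 transcripts. Of these, 140137 matched GENCODE M21 (GRCm38) by name without version; the other 521 held 0.135% to 0.181% of the reads and were left out. Deposited estimated counts were summed per gene, or kept per transcript, and rounded. The deposited TPM was used for levels per length only, and the deposited effective length was an offset in 1 alternative.

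Counts were tested in edgeR 4.0.16 (R 4.3.3): filterByExpr (minimum count 10, minimum total 15; 16043 genes left), TMM scaling, 1 mean per group over all 12 libraries and two-sided quasi-likelihood F tests of 5 contrasts. The threshold was an adjusted p under 0.05, with the Benjamini-Hochberg method over all tested genes. SE is the log2 fold change divided by the root of F. The fit was also run on counts simulated from its own model for the genotype contrast at 3 h. That cannot show how it handles libraries that deviate from their group. Transcript shares were compared with exact permutation tests over 400 arrangements with all 12 libraries. There were 200 with 1 library left out and 60 without the 3 libraries that stood apart. Promoters came from RefSeq and were searched with Python 3.11.15.

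The genes and lists were chosen with earlier results of these data known. All 5 genes are named in every contrast; of each list, counts in both directions and up to 3 genes that passed by genotype; for each of the 5, the 3 genes most like it and its nearest neighbours. List genes named over time, Ccnd1 and the non-Cdkn2a transcripts were chosen after their values were seen. Same-numbered libraries at 48 h deviated together (r = 0.56, 0.74 and 0.56). Replicates 1 and 3 of different genotypes did so as well (0.58 and 0.60), and the labels do not say what a number marks. At 3 h (0.15, 0.08 and 0.05) and across times (-0.01 to 0.02) same-numbered libraries did not. The main tests held no replicate block, so the 48 h values are unpaired unless a block is named. A block was fitted only as an alternative. Alternatives were RLE factors, other filters, DESeq2 1.42.0, limma-voom (limma 3.58.1), effective-length offsets, only the groups compared, replicate blocks, and libraries left out.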

Additional observations from a re-analysis of the deposited data

How the results depend on the processing

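Over 761 refits of single genes and Cdkn2a transcripts, 691 kept direction and side of the threshold, 40 no longer passed, 22 newly passed and 8 reversed; differences that round to 0 were given no direction. Reversed were Cdkn2d at 3 h (0.13 without the 3 libraries that stood apart, 0.13 without wild-type replicate 1), Cdkn2d at 48 h (-0.26 without replicate 2 labelled Chd5-/-), and, in the interaction, Cdkn2d (-0.12) and Cdkn1b (0.25) without the 3 libraries, Cdkn1b (0.26) without wild-type replicate 1 at 3 h, and Cdkn2c (0.02 without wild-type replicate 2 at 48 h, 0.02 without replicate 3 labelled Chd5-/- at 48 h); none of these but Cdkn2d at 3 h and Cdkn1b in the fit without 3 libraries passed. With 1 library left out, these 5 differences ranged from -0.85 to 0.13 (Cdkn2d at 3 h), -0.26 to 0.89 (Cdkn2d at 48 h), -0.39 to 0.02 (Cdkn2c, interaction), 0.32 to 1.47 (Cdkn2d, interaction) and -0.45 to 0.26 (Cdkn1b, interaction). The cause was not tested.

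With 1 library left out, 0 to 2 inhibitors passed at 3 h, 0 to 1 at 48 h, 2 to 4 over time in wild type, 1 to 3 over time in the libraries labelled Chd5-/- and 0 in the interaction; of the Cdkn2a transcripts, 0 to 2 passed at 3 h and 0 to 2 over time in wild type. Cdkn2a over time in wild type lost its call without replicate 1 or 3 at 48 h (adjusted p = 0.0747 each, edgeR). Over all genes the ranges were 419 to 1636 at 3 h, 184 to 1454 at 48 h, 1464 to 5419 and 1708 to 7280 over time in wild type and the libraries labelled Chd5-/-, and 15 to 310 in the interaction. The Cdkn2a share difference stayed between 0.64 and 1.21 percentage points (exact p 0.005 to 0.045).

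Without the 3 libraries that stood apart, 8659, 7791, 12539, 13029 and 6669 genes passed in the 5 contrasts (3 h, 48 h, wild-type time, time in those labelled Chd5-/-, interaction), inhibitors that passed numbered 3 at 48 h, 5 and 3 over time and 3 in the interaction, and 1 Cdkn2a transcript passed in the interaction. DESeq2 passed 2091, 920 and 385 genes at 3 h, 48 h and in the interaction, with 4856 and 4668 over time in wild type and the libraries labelled Chd5-/-, where 4 and 2 inhibitors passed. In limma-voom 3348 and 3651 genes passed over time, 2 inhibitors in the libraries labelled Chd5-/-, and 1 Cdkn2a transcript at 3 h and 1 over time in wild type, as under the stricter filter of 1 CPM in 3 libraries, which left 1 transcript to test. With only the groups compared, 0 inhibitors and 0 transcripts passed at 3 h and over time in wild type, 2 inhibitors over time in the libraries labelled Chd5-/-, and 263, 0 and 7836 genes at 48 h and over time in each genotype.

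With a replicate block in the groups compared, 0 inhibitors, 0 transcripts and 0 genes passed at 3 h and over time in wild type, 3 inhibitors and 6214 genes over time in the libraries labelled Chd5-/-, and 1330 genes at 48 h. The replicate block passed 18 genes in the interaction, also with all 12 libraries, where 1 Cdkn2a transcript passed over time in wild type. At 48 h, where same-numbered libraries deviated together, the block changed no inhibitor's call. Levels per kilobase of the longest transcript gave the same rank as TPM for 14 of 20 gene and group pairs. Cdkn2b, Cdkn1c and the p16Ink4a transcript are limited by depth, and leaving out libraries also changes how many remain per group.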
